A study of Arabidopsis thaliana with 8 samples.

Results

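Transcript levels of 7 regulators of the root stem cell niche were followed in seedlings of Arabidopsis thaliana with mutations in SAGA, a transcriptional coactivator complex that acetylates histones. The genes were chosen by locus as PLT1 (AT3G20840), PLT2 (AT1G51190), AIL6, also called PLT3 (AT5G10510), BBM (AT5G17430), WOX5 (AT3G11260), SCR (AT3G54220) and SHR (AT4G37650), out of 32548 genes in the deposited table. All 7 had a value of 1 or more in each of the 8 libraries, so none entered the tests through 1 genotype alone.

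RNA was sequenced from whole seedlings 12 days old, raised on Murashige and Skoog plates at 22 °C with 16 h of light per day. The groups were wild type Col-0, hag1 (hag1-/-), ada2b (ada2b-/-) and the double mutant scs1 scs2a (scs1-/-scs2a-/-), with 2 libraries each. The Col-0 plants are the only group without a mutation, and neither the alleles nor the number of seedlings pooled per library is given in the sources used here. HAG1 is the histone acetyltransferase of SAGA, ADA2B is its adaptor, and SCS1 and SCS2A are SAGA subunits of plants. Whole seedlings hold leaves, hypocotyl and root, so the niche is a minute part of the RNA, and fewer cells of a type cannot be told apart from less RNA per cell.

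At the root tip a small group of rarely dividing cells, the quiescent centre, keeps the surrounding stem cells undifferentiated. PLT transcription factors of the AP2 class are induced downstream of auxin and act by dose, SHR protein made in the vascular tissue moves outward and activates SCR, and WOX5, a homeobox factor of the quiescent centre, is expressed where these inputs meet. Earlier genetic work tied HAG1 and ADA2B to the maintenance of this niche through the PLT genes, which is the reason to look at the 7 genes together.

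The libraries held 20570967 to 22344725 normalised counts, the unit of all levels below. The targeted genes came first: HAG1 stood at 131 and 133 in the hag1 libraries against 296 and 328 in wild type (limma adjusted p = 2.92e-05). ADA2B stood at 567 and 613 in ada2b against 708 and 711 (limma adjusted p = 0.0136), which is a weak check because a mutated gene can still be transcribed. Leaving out 1 library ended the ADA2B call in 3 of the 8 refits, with an adjusted p of 0.0516 and 0.0567 for the wild type libraries and 0.0886 for ada2b replicate 1. SCS1 and SCS2A were not checked by name. All 5 leaf photosynthesis markers and all 16 markers of differentiated root were above 0 in every library, while the shoot stem cell gene WUS was listed at 0 throughout. Fold changes are log2(mutant / wild type) on the log2(value + 1) scale ± SE, from 1 limma fit over the 8 libraries with p-values adjusted over 25459 genes, and a gene is called at an adjusted p below 0.05. Whether both libraries of a genotype derive from independent cultures is not stated, and the spread behind the p-values may therefore be technical.

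In wild type the 7 regulators spanned a wide range of abundance. Per kb of coding length, SCR had the highest mean level, 509 normalised counts per kb, followed by SHR at 176, AIL6 at 85.4 and WOX5 at 31.4. PLT1 stood at 7.5, PLT2 at 6.3 and BBM at 3.07. PLT1 and PLT2 overlapped between libraries, and every other pair of neighbours in this order was separated in both wild type libraries. The order SCR, SHR, AIL6 was the same in all 4 genotypes, also per kb of exon length. WOX5 took rank 4 in wild type and in hag1 (17.5 per kb) and rank 6 in the other mutants, at 6.28 in ada2b and 8.7 in scs1 scs2a. There its libraries overlapped those of its neighbours in the order, PLT2 and BBM in ada2b and PLT1 in scs1 scs2a. Per kb of exon it ranked 7 in ada2b.

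**Figure D1:**
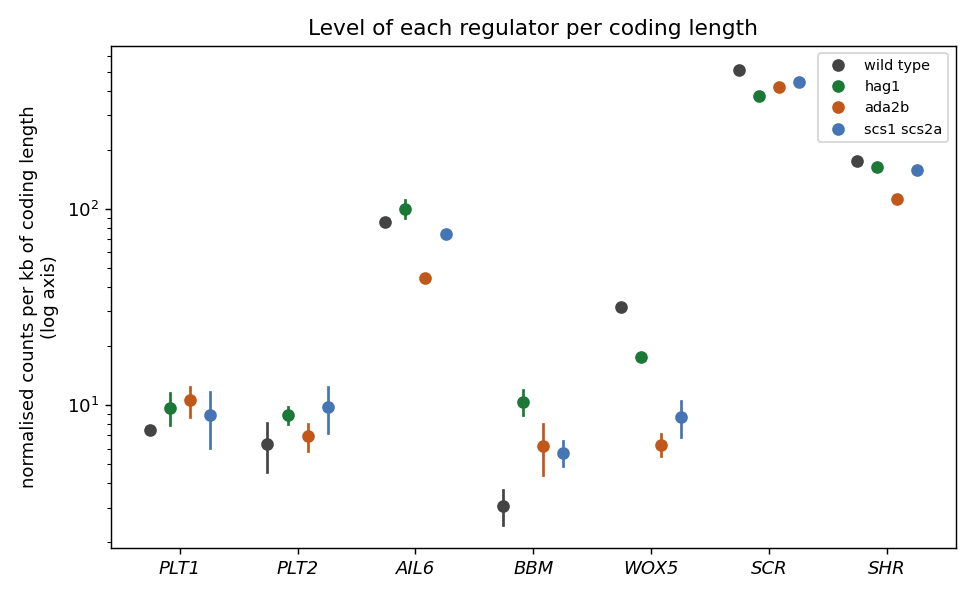
Mean level of each regulator in normalised counts per kb of coding length (log axis), by genotype, with bars from the lower to the higher of the 2 libraries. SCR, SHR and AIL6 lie above the other regulators in all 4 genotypes, and WOX5 goes from 31.4 in wild type to 6.28 in ada2b.

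WOX5, which in the quiescent centre keeps the neighbouring columella stem cells from differentiating, showed the largest fold difference among the 7 genes. Its level was 17.4 and 17.1 in the wild type libraries, 9.39 and 9.8 in hag1 and 3 and 3.9 in ada2b, while scs1 scs2a stood at 5.76 and 3.78. All 6 mutant libraries lay below both wild type libraries, and hag1 lay between wild type and the other mutants with no overlap. WOX5 fell in ada2b, where the log2 fold change was -2.04 ± 0.33 (limma adjusted p = 0.00136). In scs1 scs2a it fell too (-1.68 ± 0.33, limma adjusted p = 0.0103). The difference of hag1 was -0.78 ± 0.33 and did not pass the test (limma adjusted p = 0.0891), although it did with a pseudocount of 5 (0.0284) or without limma's trend (0.0239). The scs1 scs2a call was lost when 1 of 3 libraries was left out, namely wild type replicate 1 (adjusted p = 0.0629), its replicate 2 (0.0575) or scs1 scs2a replicate 2 (0.0739). Reads behind these values were few. The pair of wild type libraries held an estimated 32 reads. The ada2b pair held 7, which is 0.199 of wild type after depth (95% counting interval 0.0741 to 0.459), the scs1 scs2a pair 10, or 0.274 (0.12 to 0.572), and the hag1 pair 19, or 0.555 (0.297 to 1.01).

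SCR, a GRAS-family factor required in the quiescent centre and for the division that separates cortex from endodermis, was called lower in all 3 mutants, by small amounts. Wild type libraries stood at 1015 and 980 normalised counts, hag1 at 722 and 755, ada2b at 845 and 801, and scs1 scs2a at 860 and 880. No mutant library reached the lower wild type value, and hag1 was the lowest group. The hag1 level was 0.74 times wild type (log2 fold change -0.43 ± 0.06, limma adjusted p = 0.000443), that of ada2b 0.825 times (-0.28 ± 0.06, 0.00425) and that of scs1 scs2a 0.872 times (-0.20 ± 0.06, 0.0431). The scs1 scs2a call was lost in several fits: with wild type replicate 1 (adjusted p = 0.194) or 2 (0.103), ada2b replicate 1 (0.0546) or 2 (0.0544), or scs1 scs2a replicate 1 (0.155) or 2 (0.132) left out, with scaling to the library total (0.219), in a fit of only the pair of genotypes compared (0.0644), and without limma's trend (0.107).

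SHR, the mobile GRAS-family factor that activates SCR and is retained in the nucleus by it, was lower in ada2b. Its libraries gave 277 and 286 in wild type, 267 and 255 in hag1 and 172 and 187 in ada2b, while scs1 scs2a stood at 244 and 256. The ada2b libraries lay below all others, while the hag1 and scs1 scs2a libraries, at 244 to 267, lay a little below both wild type libraries. In ada2b the log2 fold change was -0.65 ± 0.09 (limma adjusted p = 0.000562), or 0.638 times wild type (95% interval 0.554 to 0.735). The differences of hag1 (-0.11 ± 0.09, limma adjusted p = 0.352) and scs1 scs2a (-0.17 ± 0.09, 0.22) did not pass, with 95% intervals of 0.805 to 1.07 and 0.772 to 1.02 times wild type. SCR was lowest in hag1 and SHR was lowest in ada2b. SHR differed between those mutants (ada2b against hag1 -0.54 ± 0.09, limma adjusted p = 0.00174) whereas the SCR difference of 0.16 ± 0.06 missed the threshold (0.0555; called with scaling to the library total, 0.0457).

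**Figure D2:**
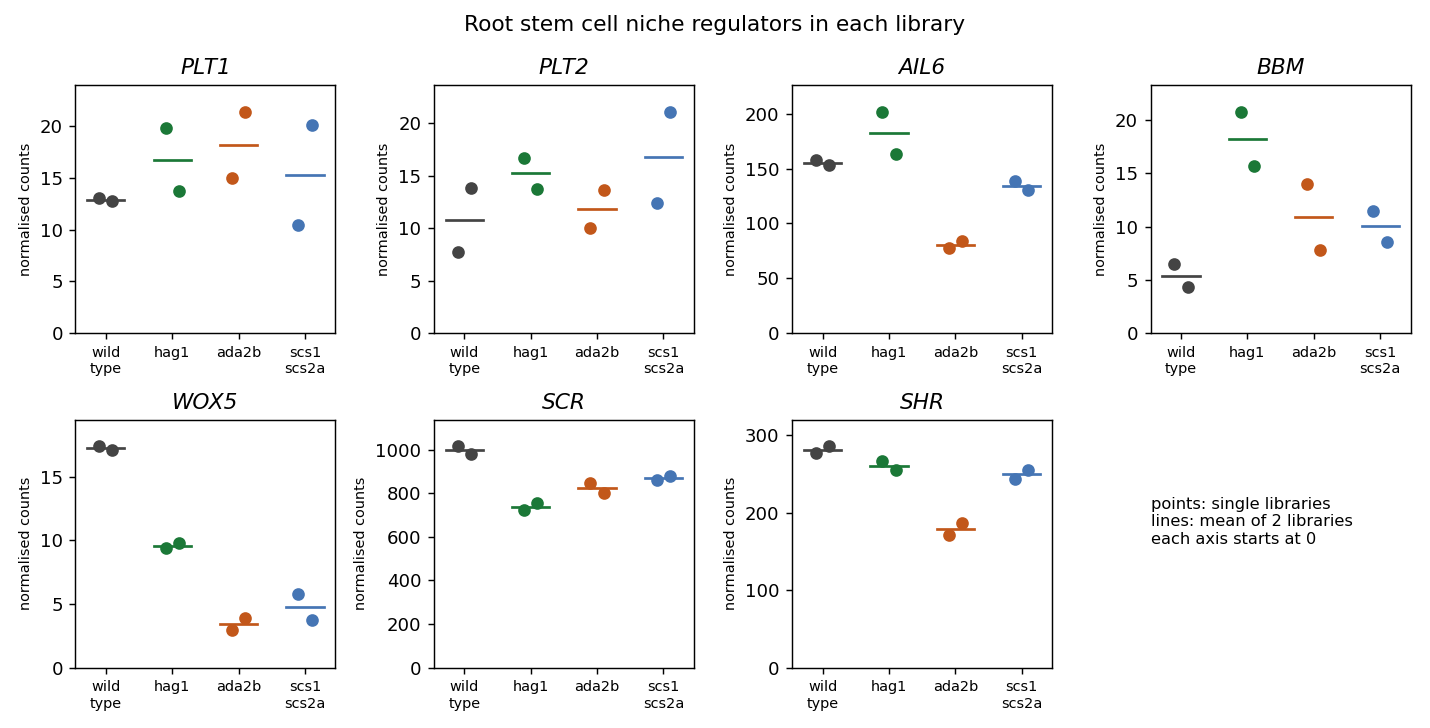
Normalised counts of the 7 regulators in each of the 8 libraries (points, linear axes from 0), with the mean of the 2 libraries of a genotype as a line. WOX5 lies below wild type in every mutant library, AIL6 and SHR are lowest in ada2b, and the PLT1 libraries of scs1 scs2a, at 10.4 and 20.1, lie on both sides of wild type.

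AIL6 (PLT3) was the most abundant of the 4 PLT-type genes, and it is also active in shoot and flower meristems. The libraries stood at 158 and 153 in wild type, 202 and 163 in hag1 and 77.1 and 83.7 in ada2b, while scs1 scs2a stood at 139 and 130. The ada2b libraries were below all others, near 0.521 times wild type (log2 fold change -0.94 ± 0.14, limma adjusted p = 0.000769). In hag1 (0.22 ± 0.14, limma adjusted p = 0.223) and scs1 scs2a (-0.20 ± 0.14, 0.342) the differences did not pass. Exons of AIL6 overlap those of RBK1 (AT5G10520), a ROP-binding protein kinase gene on the opposite strand, over 454 bases or 14.7% of the exon length of AIL6, and whether strand was used in counting is unknown. RBK1 also fell in ada2b, from 174 and 157 in wild type to 77.1 and 59.3 (log2 fold change -1.28 ± 0.17, limma adjusted p = 0.000478), so reads from the shared stretch cannot be told apart. Its part in the AIL6 result was not tested.

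BBM, a PLT-type factor best known for driving embryo-like growth when overexpressed, was the rarest of the 7 genes in wild type and was higher in hag1. Its libraries gave 6.48 and 4.31 in wild type, 20.8 and 15.7 in hag1 and 14 and 7.75 in ada2b, while scs1 scs2a stood at 11.5 and 8.54. Every mutant library lay above both wild type libraries. BBM rose in hag1 (log2 fold change 1.60 ± 0.39, limma adjusted p = 0.00971), and it was no longer called without wild type replicate 2 (0.0598) or hag1 replicate 1 (0.0602). The hag1 pair held an estimated 36 reads and the wild type pair 10, or 3.37 times as many after depth (95% counting interval 1.64 to 7.61). Differences of 0.86 ± 0.39 in ada2b (limma adjusted p = 0.0956) and 0.79 ± 0.39 in scs1 scs2a (0.186) did not pass, with counting intervals of 0.91 to 4.73 and 0.831 to 4.39 times wild type.

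PLT1 and PLT2, the pair whose combined loss collapses the root meristem, gave no call in any comparison. PLT1 stood at 13 and 12.8 in wild type, 19.8 and 13.7 in hag1 and 15 and 21.4 in ada2b, while scs1 scs2a stood at 10.4 and 20.1. PLT2 stood at 7.73 and 13.8 in wild type, 16.7 and 13.7 in hag1 and 10 and 13.6 in ada2b, while scs1 scs2a stood at 12.4 and 21.1. The hag1 and ada2b libraries of PLT1 lay above both wild type libraries, those of scs1 scs2a lay on both sides, and the PLT2 libraries of every mutant overlapped wild type. For PLT1 the log2 fold changes in the order hag1, ada2b, scs1 scs2a were 0.33, 0.45 and 0.16, each ± 0.37 (limma adjusted p = 0.514, 0.356 and 0.806). For PLT2 they were 0.50, 0.16 and 0.60, each ± 0.39 (limma adjusted p = 0.324, 0.756 and 0.318). The 95% intervals in hag1 ran from 0.694 to 2.26 times wild type for PLT1 and from 0.77 to 2.61 for PLT2. In ada2b these intervals were 0.754 to 2.46 and 0.607 to 2.06, and in scs1 scs2a 0.618 to 2.02 and 0.82 to 2.79. Changes of PLT protein are not measured here.

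**Figure D3:**
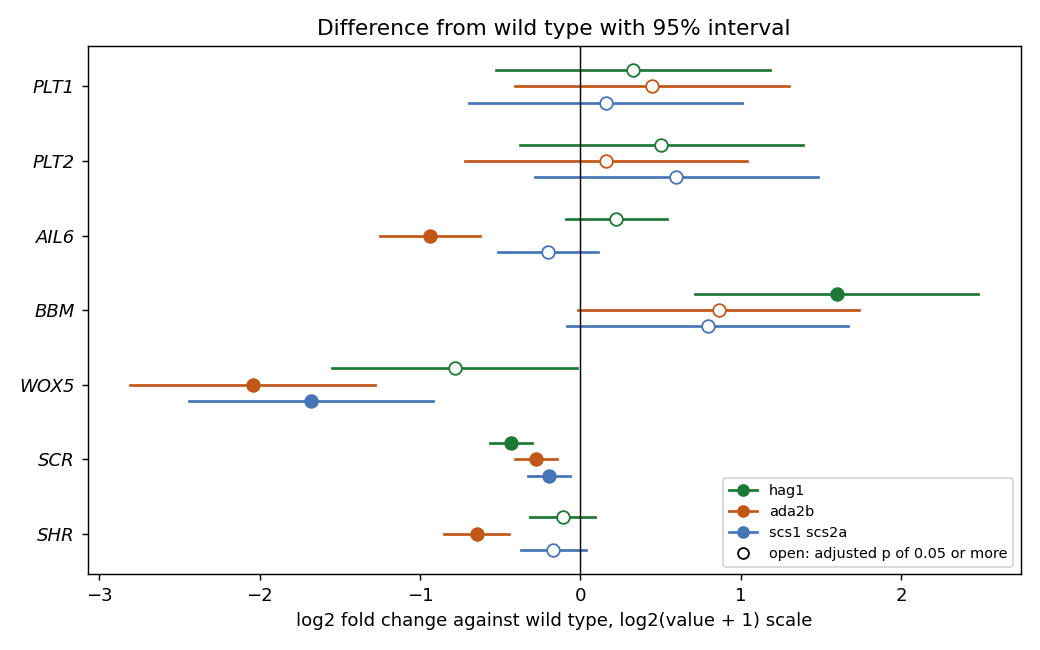
Log2 fold change of each regulator against wild type, on the log2(value + 1) scale, with the 95% interval of the limma fit, for hag1, ada2b and scs1 scs2a. Filled points are called, and the called ones are BBM (higher) and SCR in hag1, AIL6, WOX5, SCR and SHR in ada2b, and WOX5 and SCR in scs1 scs2a.

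Counted together, 4 of the 7 regulators changed in ada2b, all of them lower, against 48.1% of all tested genes called in either direction, 23.4% lower and 24.7% higher. In hag1 the count was 2 of 7, with BBM higher and SCR lower, beside 44.3% of all genes (21.3% higher, 23% lower), and in scs1 scs2a it was 2 of 7, both lower, beside 19.9% (7.86% higher, 12.1% lower). With 7 genes a single call moves the share widely, and the counts set the regulators apart from no other genes. Of all tested genes, 2001 were called higher and 3078 lower in scs1 scs2a, a split that became 4137 and 2210 with library-total scaling. In the other mutants scaling decided which direction had more calls. In ada2b 6283 were higher and 5968 lower, against 5208 and 6463 with median-ratio scaling, 5372 and 6383 with upper-quartile scaling and 7309 and 5544 with library-total scaling. In hag1 5419 were higher and 5860 lower, against 6043 and 5360 with library-total scaling. The hag1 count was 1 without wild type replicate 2 or hag1 replicate 1. The scs1 scs2a count was 1 without ada2b replicate 1, ada2b replicate 2 or scs1 scs2a replicate 1, and 0 without wild type replicate 1, wild type replicate 2 or scs1 scs2a replicate 2. The 7 genes had a median log2 fold change of 0.22 in hag1, of -0.28 in ada2b and of -0.17 in scs1 scs2a, beside medians over all tested genes of -0.0022, 0.03 and 0.

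The mutants were also compared with each other. Between ada2b and hag1, 3 of the 7 genes were called (42.8% of all genes), namely AIL6 at -1.16 ± 0.14 (limma adjusted p = 0.000325), SHR as above and WOX5 at -1.26 ± 0.33 (0.0158), all lower in ada2b. For WOX5 the call was lost with hag1 replicate 1 (adjusted p = 0.0516), hag1 replicate 2 (0.0597) or ada2b replicate 1 (0.0783) left out. Between scs1 scs2a and ada2b, AIL6 (0.74 ± 0.14, limma adjusted p = 0.00577) and SHR (0.48 ± 0.09, 0.00577) were higher in scs1 scs2a, 2 of 7 beside 29.7% of all genes, whereas WOX5 differed by 0.36 ± 0.33 (0.451). Between scs1 scs2a and hag1, SCR was higher (0.24 ± 0.06, limma adjusted p = 0.0154) and AIL6 lower (-0.43 ± 0.14, 0.0469) in scs1 scs2a, 2 of 7 beside 30.1%. WOX5 differed by -0.90 ± 0.33 and did not pass (limma adjusted p = 0.0754), although it did with a pseudocount of 5 (0.0452) or without limma's trend (0.0273). Without the trend neither SCR (0.0528) nor AIL6 (0.0577) was called. AIL6 was also not called with upper-quartile (0.0511) or library-total scaling (0.0729), without a filter on low values (0.0516) or in a fit of only the pair of genotypes (0.123). Both calls depended on single libraries. SCR lost its call without hag1 replicate 1 (0.0732), scs1 scs2a replicate 1 (0.0564) or scs1 scs2a replicate 2 (0.079), and AIL6 in turn without wild type replicate 1 (0.0638) or 2 (0.0633), hag1 replicate 1 (0.229), ada2b replicate 1 (0.0576) or 2 (0.059), and scs1 scs2a replicate 1 (0.115) or 2 (0.179).

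The closest relatives of the PLT genes came next. Of 4 further genes of this family 3 were tested, and AT1G72570 was listed at 0. AIL7, which with AIL6 and its relatives shapes shoot organ positions and lateral roots, stood at 27.3 and 31.9 in wild type, rose to 70.9 and 65.7 in hag1 (log2 fold change 1.18 ± 0.26, limma adjusted p = 0.00617) and fell to 15 and 10.7 in ada2b (-1.16 ± 0.26, 0.00645). ANT, a growth regulator of shoot organs, fell from 488 and 557 to 242 and 255 in ada2b (-1.07 ± 0.14, limma adjusted p = 0.000423), and was -0.06 ± 0.14 in hag1. In scs1 scs2a ANT was called lower (-0.52 ± 0.14, limma adjusted p = 0.0331), but the call was lost with any 1 library of wild type, ada2b or scs1 scs2a left out (0.0502 to 0.196). The family counts were 1 higher in hag1, 2 lower in ada2b and 1 lower in scs1 scs2a, with medians of 0.35, -1.07 and -0.52. Among all tested genes 44.3, 48.1 and 19.9% were called in either direction.

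Among the other WOX genes, 10 of 14 were tested. WOX14, a vascular relative of WOX5, went from 25.3 and 40.3 in wild type to 3 and 2.92 in ada2b (log2 fold change -3.06 ± 0.45, limma adjusted p = 0.000798). WOX4, which maintains the cambium, fell from 113 and 99.4 to 56.1 and 64.3 in ada2b (-0.81 ± 0.16, 0.00332). WOX11 and WOX12 act at the start of adventitious root formation. WOX11 rose from 6.46 and 3.25 to 15.2 and 22.9 in scs1 scs2a (1.81 ± 0.42, limma adjusted p = 0.0202; not called without wild type replicate 2, 0.107, or scs1 scs2a replicate 2, 0.137), while WOX12 fell from 9.74 and 7.51 to 2 and 3.9 in ada2b (-1.32 ± 0.41, 0.0278; not called without wild type replicate 1, 0.143, wild type replicate 2, 0.0683, or ada2b replicate 1, 0.151). WOX4 was called higher in hag1 (0.47 ± 0.16, limma adjusted p = 0.0413), but not with hag1 replicate 2 or any wild type or scs1 scs2a library left out (0.06 to 0.204). WOX11 was called higher there as well (1.43 ± 0.42, limma adjusted p = 0.0247), but not with wild type replicate 2 or either hag1 library left out (0.0744 to 0.143). The lower call of WOX14 in scs1 scs2a (-1.66 ± 0.45, limma adjusted p = 0.0344) was lost with scs1 scs2a replicate 2 or any wild type or ada2b library left out (0.0504 to 0.18). Over the list, 2 (WOX4 and WOX11) rose and 0 fell in hag1, 0 rose and 3 fell in ada2b, and WOX11 rose and WOX14 fell in scs1 scs2a, with medians of -0.14, -0.44 and -0.33. These counts stand beside 44.3, 48.1 and 19.9% of all tested genes called in either direction.

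Partners and targets of SHR and SCR gave 10 tested genes. CYCD6;1, the D-type cyclin that SHR and SCR switch on for the formative division of the ground tissue, stood at 142 and 141 in wild type, 123 and 145 in hag1 and 45 and 38.9 in ada2b, while scs1 scs2a stood at 96.7 and 98.1. It fell in ada2b (log2 fold change -1.73 ± 0.15, limma adjusted p = 5.01e-05), and its hag1 value of -0.08 ± 0.15 did not pass (0.691). The fall in scs1 scs2a (-0.54 ± 0.15, limma adjusted p = 0.0381) was lost with any 1 library of the pair left out (0.14 and 0.126 for wild type replicates 1 and 2, 0.127 and 0.146 for scs1 scs2a replicates 1 and 2). SCL23, the closest relative of SCR, differed by -0.36 ± 0.11 in each mutant (limma adjusted p = 0.0247, 0.0243 and 0.0493). Each of these calls was lost with either wild type library left out, and the highest adjusted p with 1 library less was 0.143 without hag1 replicate 1, 0.112 without wild type replicate 2 and 0.271 without scs1 scs2a replicate 2. AT3G45260, a C2H2 zinc finger gene, rose in hag1 from 493 and 516 to 840 and 935 (0.81 ± 0.10, limma adjusted p = 0.000314). NUC, another zinc finger gene, was called lower in ada2b (-0.48 ± 0.17, limma adjusted p = 0.0457), but not with ada2b replicate 2 or any wild type or scs1 scs2a library left out (0.068 to 0.254). List counts were 1 higher and 1 lower in hag1, 3 lower in ada2b and 2 lower in scs1 scs2a, with medians of -0.06, -0.24 and -0.04. Of all tested genes 44.3, 48.1 and 19.9% were called in either direction. JKD, MGP, SCL3, RBR1 and MYB36 were called in no comparison with wild type.

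PLT protein levels are set in part by RGF peptides, which are sulfated by TPST and perceived by leucine-rich repeat receptor kinases. The peptide genes RGF1, RGF2 and RGF3 were not called, with 19.1 normalised counts for RGF3 as their highest value. TPST was called higher in hag1 (log2 fold change 0.23 ± 0.06, limma adjusted p = 0.0176) and ada2b (0.21 ± 0.06, 0.0252), but not without wild type replicate 1 (0.0772 and 0.0974) or 2 (0.0677 and 0.0866), hag1 replicate 1 (0.0774, hag1), or ada2b replicate 1 or 2 (0.0512 and 0.122, ada2b). Within the receptor kinase genes of the list, AT4G26540 fell from 1568 and 1577 in wild type to 565 and 641 in hag1 (-1.38 ± 0.08, limma adjusted p = 1.42e-05), 472 and 496 in ada2b (-1.70 ± 0.08, 3.55e-06) and reached 869 and 761 in scs1 scs2a (-0.95 ± 0.08, 0.000489). AT5G56040 (SKM2) fell as well, by 0.97, 1.21 and 0.46 on the log2 scale. AT3G24240 fell in ada2b (-0.93 ± 0.21, limma adjusted p = 0.00628), from 239 and 250 to 110 and 148, and was called in no other mutant. AT1G34110 fell in hag1 (-0.33 ± 0.07, limma adjusted p = 0.00509). It was called higher in ada2b (0.21 ± 0.07, limma adjusted p = 0.036) and scs1 scs2a (0.24 ± 0.07, 0.0483), calls that were lost with any 1 library of the pair left out (0.0736 to 0.192) and in scs1 scs2a with any hag1 or ada2b library as well (0.0521 to 0.0682). AT5G48940 was lower in ada2b (-0.59 ± 0.19, limma adjusted p = 0.0326), but not without wild type replicate 1 (0.0563), its replicate 2 (0.141) or ada2b replicate 2 (0.168). Of 9 genes tested, 1 rose and 3 fell in hag1, 2 rose and 4 fell in ada2b, and 1 rose and 2 fell in scs1 scs2a, with medians of 0.03, -0.59 and -0.04. The shares of all tested genes called in either direction were 44.3, 48.1 and 19.9%.

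WOX5 and the columella stem cells are restrained by the CLE40 peptide through ACR4 and CLV1. CLE40 itself was near 0 in all libraries, at 2.95 or less. CLV1, a receptor kinase that also acts in the shoot meristem, stood at 1255 and 1339 in wild type, 819 and 819 in hag1 and 656 and 594 in ada2b, while scs1 scs2a stood at 1045 and 951. It fell in hag1 (log2 fold change -0.66 ± 0.07, limma adjusted p = 0.000171) and ada2b (-1.05 ± 0.07, 1.56e-05), and in scs1 scs2a (-0.38 ± 0.07, 0.00876) except without wild type replicate 2 (0.054), without scs1 scs2a replicate 2 (0.0771) or without limma's trend (0.051). CRN, a membrane partner of CLV2, fell from 263 and 235 to 122 and 117 in ada2b (-1.05 ± 0.13, limma adjusted p = 0.000387), while CLV2 rose there (0.47 ± 0.09, 0.0031). ACR4 was lower in ada2b (-0.43 ± 0.11, limma adjusted p = 0.0114), but not without wild type replicate 1 (0.0534) or ada2b replicate 1 (0.0708), and ARF16, an auxin response factor of the root cap, fell in hag1 (-0.33 ± 0.07, 0.00563). CRN was also called lower in hag1 and scs1 scs2a, by 0.59 and 0.53 on the log2 scale, but not without wild type replicate 1 (0.0514 and 0.139) or, in scs1 scs2a, without any 1 library of the pair (0.0561 to 0.164). The root cap regulators FEZ, SMB, BRN1 and BRN2 were called in no mutant, with 32.2 normalised counts as their highest value. The 11 genes gave 0 higher and 3 lower in hag1, 1 higher and 3 lower in ada2b, and 0 higher and 2 lower in scs1 scs2a, with medians of -0.07, -0.42 and -0.16. Over all tested genes 44.3, 48.1 and 19.9% were called in either direction.

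Auxin supplies positional input to the niche, and a list of 19 genes of its transport and synthesis was counted. Of these, 2 rose and 11 fell in hag1, 1 rose and 13 fell in ada2b, and 1 rose and 8 fell in scs1 scs2a, beside the shares of all genes given above, with medians of -0.44, -0.91 and -0.35. PIN7, an auxin exporter, stood at 3731 and 3778 in wild type, 1975 and 2238 in hag1 and 2205 and 2051 in ada2b, while scs1 scs2a stood at 2652 and 2530 (limma adjusted p = 4.54e-05, 4.32e-05 and 0.00186). The importers AUX1 and LAX2 fell by 0.54 and 0.73 in hag1 and by 1.08 and 1.61 in ada2b on the log2 scale, and by 0.56 and 0.61 in scs1 scs2a. LAX3, another importer, fell by 0.52 in hag1 and 1.37 in ada2b. In scs1 scs2a LAX3 was called lower by 0.35 (limma adjusted p = 0.0172). That call was lost under 5 settings, among them library-total scaling, no trend and either scs1 scs2a library left out. MP, an auxin response factor that acts upstream of the niche from the embryo on, was singled out after its values were seen. MP fell in ada2b from 493 and 501 to 147 and 185 (-1.58 ± 0.13, limma adjusted p = 4.05e-05). MP also fell in scs1 scs2a, to 313 and 261 (-0.79 ± 0.13, limma adjusted p = 0.00474). In hag1 MP was called lower as well, at 401 and 363 (-0.38 ± 0.13, limma adjusted p = 0.0428). The hag1 call of MP was lost under 8 settings, among them any 1 library of the pair compared left out. The others were library-total scaling, the replicate block, no filter on low values and the fit without trend. Auxin synthesis genes of the list went both ways. TAA1 was called lower in every mutant (log2 fold change -0.91 for ada2b, -0.74 for scs1 scs2a and -0.44 for hag1). Only its hag1 call was lost, under 1 setting. YUC3 fell in hag1 and ada2b (-1.21 each) and YUC9 fell in ada2b (-1.06), calls that held under every setting. YUC5 was called higher in hag1 (0.87), a call lost under 6 settings, and YUC7 was not called against wild type. YUC8, an auxin synthesis gene, was called higher in all 3 mutants, from 26.1 and 28.8 in wild type to 40.7 and 41.2 (hag1), 39 and 41.9 (ada2b) and 47.9 and 45.7 (scs1 scs2a), but no such call held with any 1 library of the pair compared left out (0.0787 to 0.17). All of these genes are expressed in shoots too, and their levels in whole seedlings are not those of the root tip.

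**Figure D4:**
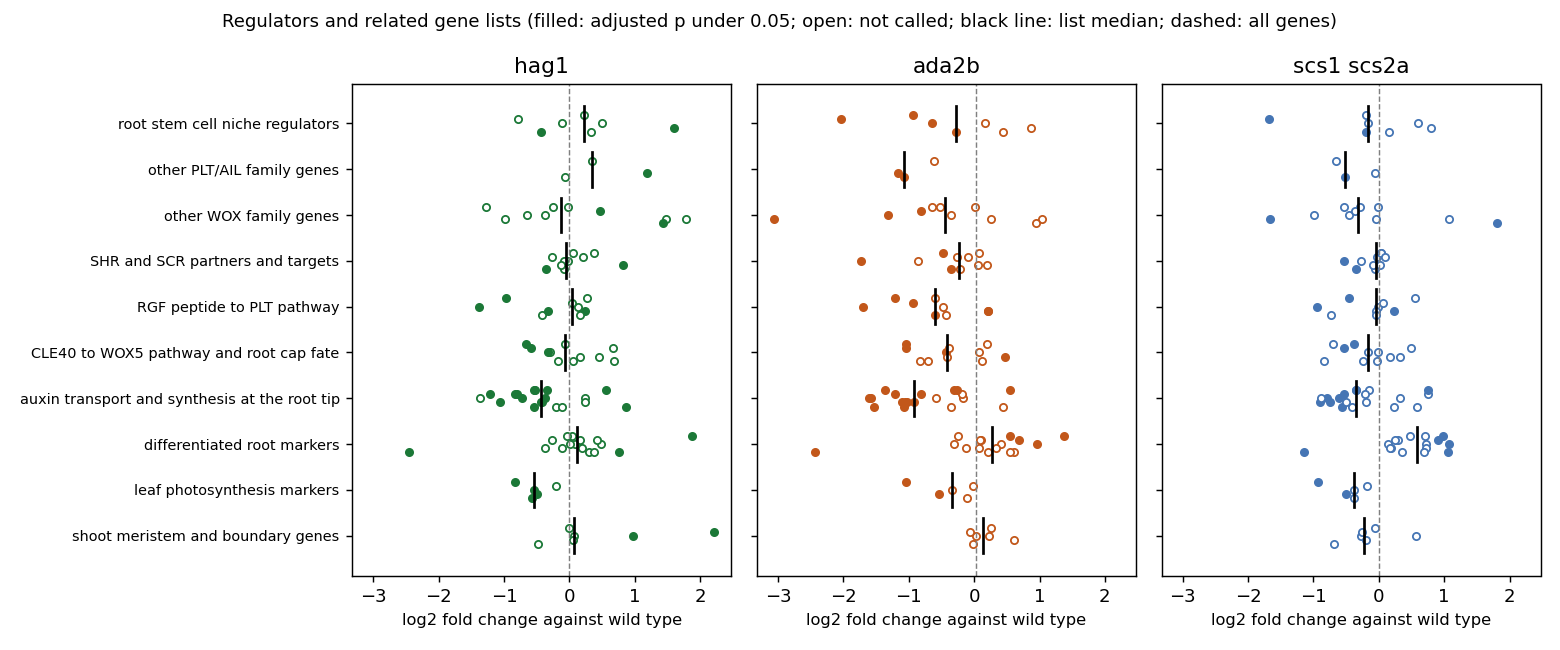
Log2 fold change against wild type of the 7 regulators and of every tested gene in the 9 related lists, one panel per mutant. Filled points are called, black lines are list medians and the dashed line is the median of all tested genes. The auxin list has a median of -0.91 in ada2b, and the differentiated root markers have one of 0.59 in scs1 scs2a.

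The share of root in a seedling bears on every gene above. Of 16 tested markers of differentiated root, 2 rose in hag1 and 4 each in ada2b and scs1 scs2a, while 1 fell in every mutant. The list medians were 0.12, 0.27 and 0.59. A call in either direction was reached by 3, 5 and 5 of the 16, against 44.3, 48.1 and 19.9% of all tested genes. The markers were thus called less often than genes at large in hag1 and ada2b but more often in scs1 scs2a, which was not tested. Their sum was 46975 and 45691 in wild type, 86384 and 65917 in hag1 and 55102 and 52038 in ada2b, while scs1 scs2a stood at 59736 and 59353, above wild type in every mutant library. Most of it was PYK10, a beta-glucosidase of endoplasmic reticulum bodies, which rose in hag1 from 43806 and 42260 to 82448 and 63579 (log2 fold change 0.75 ± 0.12, limma adjusted p = 0.00116) under all 18 other settings as well, and was not called in ada2b (0.188) or scs1 scs2a (0.0745). Summed without PYK10, the markers gave 3169 and 3431 in wild type, 3935 and 2338 in hag1 and 4292 and 3636 in ada2b, while scs1 scs2a stood at 4627 and 4912. Without PYK10 the hag1 libraries thus lay on both sides of wild type, and those of ada2b and scs1 scs2a lay above it. The member that fell in all 3 mutants was TIP2;3, a tonoplast aquaporin, at 220 and 203 in wild type and 41.6 and 34.3 in hag1. CASP5, a protein of the Casparian strip domain, was called higher in hag1 and ada2b, and the root hair wall genes EXPA7 and PRP3 in ada2b and scs1 scs2a, with EXPA18 in scs1 scs2a. Each of these calls was lost without wild type replicate 1 (adjusted p = 0.0544 to 0.213), except CASP5 in hag1, which was lost without hag1 replicate 1 (0.0541). LRX1, a root hair wall protein, rose in ada2b from 311 and 335 to 715 and 558 (log2 fold change 0.97 ± 0.21, limma adjusted p = 0.00494). In scs1 scs2a LRX1 rose to 629 and 744 (1.08 ± 0.21, limma adjusted p = 0.00844), a call lost without limma's trend or without scs1 scs2a replicate 2. The 5 leaf photosynthesis markers summed to 618938 and 655090 in wild type, 443676 to 465724 in hag1 and 562334 to 563262 in ada2b, while scs1 scs2a stood at 473112 to 525992, lower in every mutant library. Of the 5, 4 were called lower in hag1 and 2 each in ada2b and scs1 scs2a. LHCA1 was called in all 3, at 0.563 (hag1), 0.484 (ada2b) and 0.524 (scs1 scs2a) times wild type (limma adjusted p = 0.000891, 0.000266 and 0.00216). PSAD1 was too, at 0.708, 0.687 and 0.706 times (0.00187, 0.0012 and 0.00583). Its scs1 scs2a call was lost in the fit of 2 genotypes or without scs1 scs2a replicate 2. RBCS1A, the largest part of the sum, was not called in ada2b (0.931 times wild type) or scs1 scs2a (0.772 times). LHCB1.3 was not called there either (0.787 and 0.769 times). Of the 6 tested shoot meristem and boundary genes only CUC1 and CUC3, both boundary regulators, were called, in hag1, where CUC1 rose from 3.33 and 6.36 to 29.1 and 21.5 (2.21 ± 0.52, limma adjusted p = 0.00841; 0.0548 without wild type replicate 1 and 0.0547 without hag1 replicate 1) and CUC3 from 15.3 and 18.1 to 29.3 and 38.3 (0.97 ± 0.26, 0.0154; 0.0809 without wild type replicate 1 and 0.0866 without hag1 replicate 2). The part of tissue shares in the values of the 7 regulators was not tested.

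**Figure D5:**
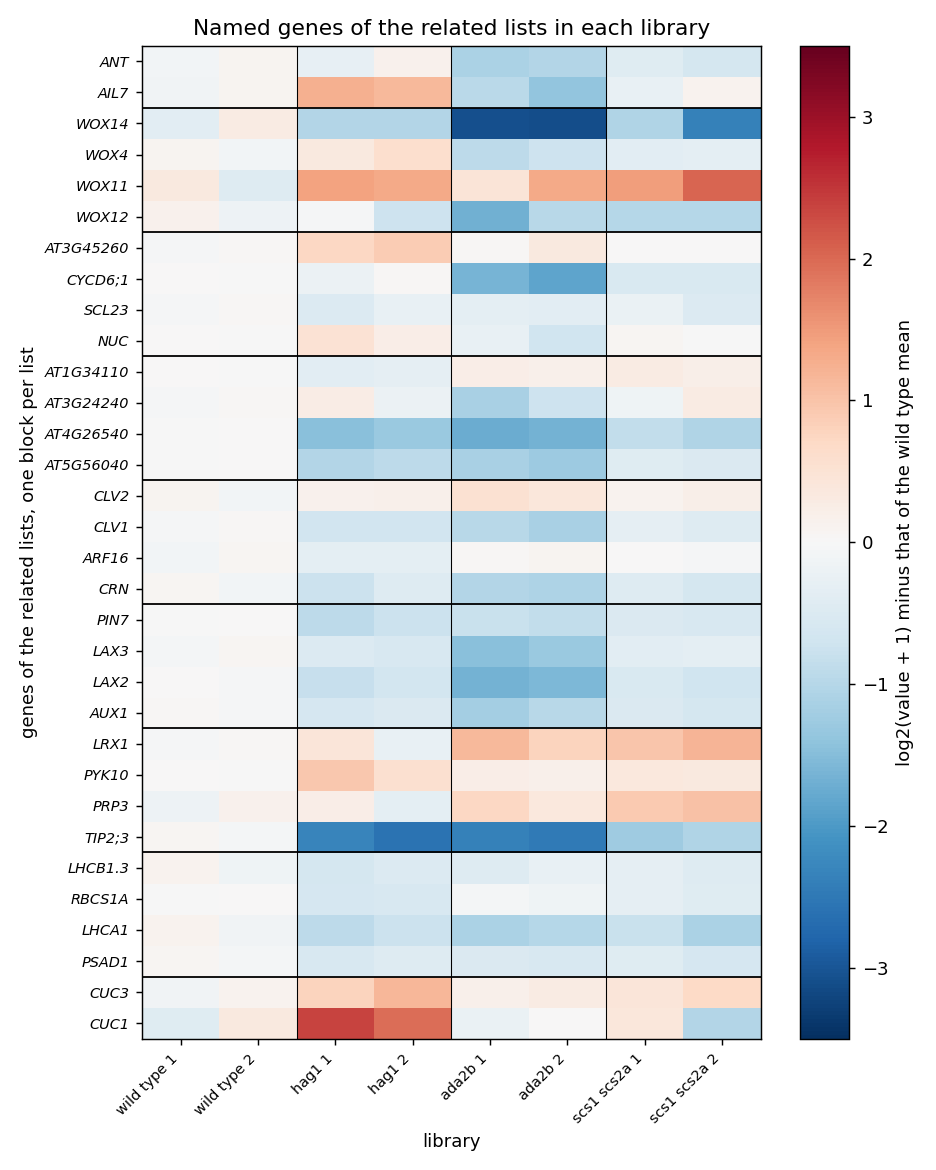
Difference of log2(value + 1) from the wild type mean in each library for the 32 genes of the related lists that were named by rule, in 1 block per list. Blue is lower and red is higher than wild type, and the colour scale ends at 3.5 in both directions. AT4G26540, SKM2 (labelled by its identifier AT5G56040), PIN7 and TIP2;3 are lower in all 6 mutant libraries, and AIL7 is higher in hag1 and lower in ada2b.

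Genes with the most similar profile over the 8 libraries were listed for each regulator by Pearson correlation of log2(value + 1) among 21463 genes with a mean of 10 or more, as a description without a test. Such a correlation takes no account of the size of a change. For WOX5 they were AT3G26730, annotated as a RING/U-box protein (r = 0.992), and AT2G18969, an atypical bHLH gene (r = 0.991), which stood at 116 and 93.1 in wild type, 60.5 and 59.8 in hag1 and 27 and 34.1 in ada2b, while scs1 scs2a stood at 43.2 and 32.3. AT3G26730 changed far less than WOX5, from 2172 and 2212 in wild type to 1830 and 1873 in ada2b. SHR ran closest to bHLH115 (r = 0.997) and AT3G27150 (r = 0.995), a kelch-repeat gene. SCR was nearest to AT5G38220 (r = 0.994) and AT1G09023 (r = 0.992), AIL6 to AT1G23040 (r = 0.994) and LPR2 (r = 0.992), and BBM to AT1G29770 (r = 0.993) and AT1G16000 (r = 0.991). For PLT1 (AT3G55600, r = 0.934, and EXO70G1, 0.911) and PLT2 (AT1G04700, 0.94, and AT5G13400, 0.915) the best matches were weaker. The points of such a correlation share the 4 genotypes and the library depth, and with 8 libraries many genes reach high values.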

How the data were processed

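The deposited table holds a normalised count signal, not whole numbers, for 32548 genes in 8 libraries (4 genotypes, 2 each) sequenced from 1 end with 50 bp reads, per the labels' protocols. HISAT2, edgeR and the TAIR10 build are named in the submitters' processing notes, while strand, counter, annotation and filters are not stated there. In the deposited signal, low values lay near multiples of 1 read (0.948 to 1.09), with 79.3 to 100% within 0.1 of a whole read. Reads were therefore only estimated, by dividing each value by that of 1 read and rounding, and no count model was run. The estimates serve for the read numbers given and for exact 95% counting intervals, which omit all error but counting.

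The design's fallback for values that are not whole was used: limma 3.58.1 (R 4.3.3) with trend on log2(value + 1), genotype as the only term, over all 8 libraries (4 residual and 4.42 prior degrees of freedom), two-sided, with Benjamini-Hochberg adjustment. It covered 25459 genes, those reaching 1 in 2 or more libraries. On simulated data with 200 changed genes, changes of 0.5, 1 and 2 on the log2 scale were called in 53.8, 88.7 and 100% of cases for hag1 (25285 genes). For ada2b (25262 genes) it was 60, 85 and 100%, and for scs1 scs2a (25249 genes) 68.3, 86.2 and 98.7%. Changed genes were drawn from those with a mean of 10 or more, which leaves out WOX5 (8.76). The simulated spread was a fixed setting and was not estimated from these libraries. The percentages are therefore no measure of sensitivity for the 7 regulators. Lengths, overlaps and symbols come from the RefSeq annotation of TAIR10.1, where all identifiers matched. No coordinates or sequences are printed because the build names differ. No 50-base window of the 7 transcripts occurred at more than 1 place in the genome.

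The 7 genes and the 9 related lists (95 genes) were chosen with earlier results of these data known. Of each list, up to 4 genes called in at least 1 mutant were named, by smallest p, and other list genes were named after their values were seen. Alternatives were 3 scalings, 2 filters, 2 pseudocounts, a replicate block, fits of 2 genotypes, no trend and each library left out.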

Additional observations from a re-analysis of the deposited data

How the results depend on the processing

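The 42 differences of the 7 regulators (6 comparisons) were recomputed under 18 settings. Of 15 that were called, none reversed and 9 kept their call under every setting: AIL6 in ada2b against wild type, hag1 and scs1 scs2a, WOX5 in ada2b against wild type, SCR in hag1 and ada2b against wild type, and SHR in ada2b against wild type, hag1 and scs1 scs2a. The remaining 6 were lost under at least 1 setting, and the cause was not tested. WOX5, BBM, PLT1 and PLT2 had 3 to 22 estimated reads in each library, which limits the precision of their values, and no setting varied depth.

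The count of called regulators in scs1 scs2a against wild type (2) was 1 with library-total scaling, with the replicate block, in the fit of the 2 genotypes or without trend, the 1 being WOX5. In scs1 scs2a against hag1 (2) it was 1 under those settings, with upper-quartile scaling and without a filter. That 1 was SCR, except without trend, where SCR and AIL6 were both lost and WOX5 was newly called. The titles do not say whether a replicate number marks a shared batch. Deviations of same-numbered libraries were weakly correlated (-0.0815 to 0.125), which cannot settle it, so the block stands only for a shared number. Under the block SCR in scs1 scs2a was no longer called (adjusted p = 0.0672). When a fold of at least 1.5 was also asked for (added after seeing the data), the counts were 1 in hag1 and 1 in scs1 scs2a against wild type, 0 in scs1 scs2a against hag1 and 1 in scs1 scs2a against ada2b. The called SCR in ada2b (0.825 times wild type) and SHR in ada2b against hag1 (0.689 times) fell short of it too. The counts of ada2b against wild type and against hag1 were thus also lower. With 1 library left out the counts ranged from 1 to 2 in hag1 and from 0 to 2 in scs1 scs2a against wild type, and from 0 to 2 in scs1 scs2a against hag1.

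Genes called higher in scs1 scs2a (2001 of all tested) numbered 4137 with library-total scaling, 1065 in the fit of the 2 genotypes, 872 without trend and 476 to 2094 with a library left out. Those called lower (3078) numbered 1885 without trend and 1207 to 3067 with a library left out.

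Uncalled differences changed sign when a library was left out for PLT1 (scs1 scs2a against wild type -0.28 to 0.60, ada2b against hag1 -0.13 to 0.37, scs1 scs2a against hag1 -0.61 to 0.27, scs1 scs2a against ada2b -0.73 to 0.15), PLT2 (ada2b against wild type -0.22 to 0.54, scs1 scs2a against hag1 -0.27 to 0.45) and BBM (scs1 scs2a against ada2b -0.46 to 0.32). Of 103 called values of the list genes, HAG1, ADA2B and RBK1 against wild type, 59 kept their call under every setting. Settings other than a left-out library also ended calls. Without trend these included ANT, WOX14, WOX11, SCL23, AT1G34110, CLV1, CRN, PRP3, EXPA7 and EXPA18 in scs1 scs2a, SCL23, NUC, AT5G48940, PRP3 and EXPA7 in ada2b, and SCL23 in hag1. Library-total scaling ended, among others, those of ANT, CYCD6;1 and SCL23 in scs1 scs2a, NUC in ada2b and MP in hag1. Median-ratio scaling ended those of TPST, AT1G34110, PRP3 and YUC8 in ada2b and AT1G34110 in scs1 scs2a.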
